A study of Drosophila melanogaster with 8 samples.

Results

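The genes of the small nuclear RNAs (snRNAs) were examined for the chromatin association of NELF-E, a subunit of the Negative Elongation Factor. All genes with the biotype snRNA in the Ensembl BDGP6 annotation of Drosophila melanogaster were taken, which gave 32 of 18358 genes. They comprised 5 U1, 6 U2, 3 U4, 7 U5 and 3 U6 genes, 4 genes of the minor spliceosome (U11, U12, U4atac and U6atac), 2 7SK genes, the U7 gene and the gene LU. A gene was counted as carrying NELF-E in a library if a peak of that library overlapped the 300 bp either side of its start by at least 1 bp. NELF-E was measured by ChIP-seq in Kc167 cells, a female Drosophila line of embryonic origin, 3 days after transfection. The siAGO2 cells received an siRNA against AGO2 (Argonaute2, the Argonaute protein of the siRNA pathway), and the mock cells went through nucleofection without any RNA. There were 2 replicates of each treatment, and the sources do not say whether these came from separate cultures, so the spread between them may be technical. The peak lists do not measure AGO2 itself, so the knockdown was not checked here. The 4 input samples were not analysed here.

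NELF acts with the factor DSIF to hold RNA polymerase II shortly downstream of the start of transcription, and release follows phosphorylation by P-TEFb. The snRNAs are short, abundant and not polyadenylated. In flies, RNA polymerase II transcribes the U1, U2, U4, U5, U7, U11, U12 and U4atac genes, and RNA polymerase III transcribes the U6, U6atac and 7SK genes. Promoters of both kinds share a proximal sequence element, the PSEA, which is bound by the complex SNAPc. Polymerase III promoters of this type hold a TATA box between the PSEA and the start. In human cells, NELF has also been linked to the formation of snRNA ends.

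The promoter sequences show what the genes with and without NELF-E have in common. The motif TTCCCAA, taken as the PSEA core, was searched on both strands in the 100 bases before each start. It was found at 26 of 32 snRNA genes (81.25%), against 1.92% of 18277 genes of all kinds. At all 26 it lay on the sense strand, beginning 61 to 55 bases before the start. This range was taken from the snRNA matches themselves, so all 26 fall in it by definition. The motif lay in the range at 0.224% of all genes, which include the snRNA genes. The relaxed motif TTCNCAA, which includes TTCCCAA and was chosen after the promoters had been seen, was found at 31 snRNA genes (96.9%), all but 7SKb, against 6.71% of all genes. TATANA beginning 40 to 20 bases before the start on the sense strand was also chosen after the promoters had been seen. It was found at 5 snRNA genes (15.6%), the 3 U6 genes, U6atac and 7SKa, against 9.73% of all genes. The 75 bases before the start are printed from the Release 6 genome of RefSeq, whose coordinates are those of dm6, for the 5 genes with a peak in every library and for 7SKa, followed by 3 genes without a peak. Capitals mark the first TTCNCAA match and the TATANA match.
U11 (chr3L:3893331-3893405, minus strand): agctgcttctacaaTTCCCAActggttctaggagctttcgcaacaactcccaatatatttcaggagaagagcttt
U1:95Ca (chr3R:23859631-23859705, minus strand): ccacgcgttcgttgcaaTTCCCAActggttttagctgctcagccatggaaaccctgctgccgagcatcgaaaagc
U2:34ABb (chr2L:13215764-13215838, plus strand): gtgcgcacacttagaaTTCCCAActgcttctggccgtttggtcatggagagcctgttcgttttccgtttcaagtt
U4:39B (chr2L:21215179-21215253, minus strand): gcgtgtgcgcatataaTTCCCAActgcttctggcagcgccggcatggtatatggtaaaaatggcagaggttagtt
LU (chr2L:3046690-3046764, plus strand): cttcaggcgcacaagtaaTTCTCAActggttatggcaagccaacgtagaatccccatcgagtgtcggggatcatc
7SKa (chr3R:7474997-7475071, minus strand): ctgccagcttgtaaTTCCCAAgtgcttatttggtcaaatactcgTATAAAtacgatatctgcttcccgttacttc
U6:96Ab (chr3R:24556617-24556691, plus strand): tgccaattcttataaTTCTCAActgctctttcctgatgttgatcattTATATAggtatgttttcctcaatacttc
U6atac (chr2L:8389649-8389723, plus strand): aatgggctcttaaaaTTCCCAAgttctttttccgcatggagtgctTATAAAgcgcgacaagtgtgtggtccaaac
U4:25F (chr2L:5565544-5565618, plus strand): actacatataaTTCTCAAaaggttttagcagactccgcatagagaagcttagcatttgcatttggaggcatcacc

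Copies within several classes are nearly the same, and the U1 RNA is shown in full for this reason. The U1 RNA of U1:21D is printed with the stretch that pairs with the splice site at the head of the intron (positions 3 to 11) in capitals. It is written as DNA.
U1:21D (chr2L:901491-901654, minus strand): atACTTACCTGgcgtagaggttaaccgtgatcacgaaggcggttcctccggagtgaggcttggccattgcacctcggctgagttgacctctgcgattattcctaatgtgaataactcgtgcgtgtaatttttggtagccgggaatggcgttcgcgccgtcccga

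The 5 U1 genes, each of 164 bp, differed from one another at 0 to 3 positions, and U1:21D, U1:95Ca and U1:95Cb were identical. The U2 genes of 192 bp also differed at 0 to 3 positions, with U2:34ABb and U2:34ABc identical, and the 3 U6 genes of 107 bp were identical. The authors discarded reads with a mapping quality under 20, which removes reads that fit several places equally well. To see where this could matter, all 50-base reads of the reference were looked up across the genome. Of the reads that lie in the 32 windows, 86.7% had a single place in the genome, and 84.7% had one when copies with 1 mismatch were counted too. Reads without a single place were not confined to the gene bodies. Along the strand from the start, they began at -54 bp at U2:38ABa and U2:38ABb and at -29 bp at U2:34ABa and U2:34ABc. At the U1 genes they began between -7 and -5 bp. Downstream they reached 209 bp at U2:34ABa. At U2:34ABc, U2:38ABa and U2:38ABb they reached 300 bp, the edge of the window. No read inside U1:21D, U1:95Ca, U1:95Cb, U2:34ABb, U2:34ABc, U2:38ABa or any U6 gene was unique, whereas all reads inside U11, U12, U4atac, U6atac, both 7SK genes, U7, LU and U4:25F were. These shares are for exact copies. With copies of 1 mismatch counted, the unique share of reads inside the gene was 0% at U1:82Eb instead of 70.4%, 0% at U1:95Cc instead of 36.5%, 0% at U2:34ABa instead of 21.7% and 0% at U2:14B instead of 8.39%.

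ChIP fragments are longer than reads, so a site inside a repeated gene can still be covered by fragments whose reads start outside it. The fragment length was not measured here, and 147 bp, the length of the shortest peak in each list, was used for it. The authors sheared chromatin to a longer average size. For fragments of 147 bp, the share of those covering the start that remain visible was computed, with exact copies only. It was 61.6% to 84.7% at the U1 genes and 31.3% to 59.5% at the U2 genes. It was 80.6% to 86.1% at the U5 genes, 75.2% to 77.2% at the U6 genes and 86.4% or 100% at the U4 genes. The U2 genes thus lost the most, and at U2:38ABa and U2:38ABb there were positions in the window where 0% of the fragments were visible. How much of the absence of peaks at these genes comes from lost reads was not tested.

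**Figure D1:**
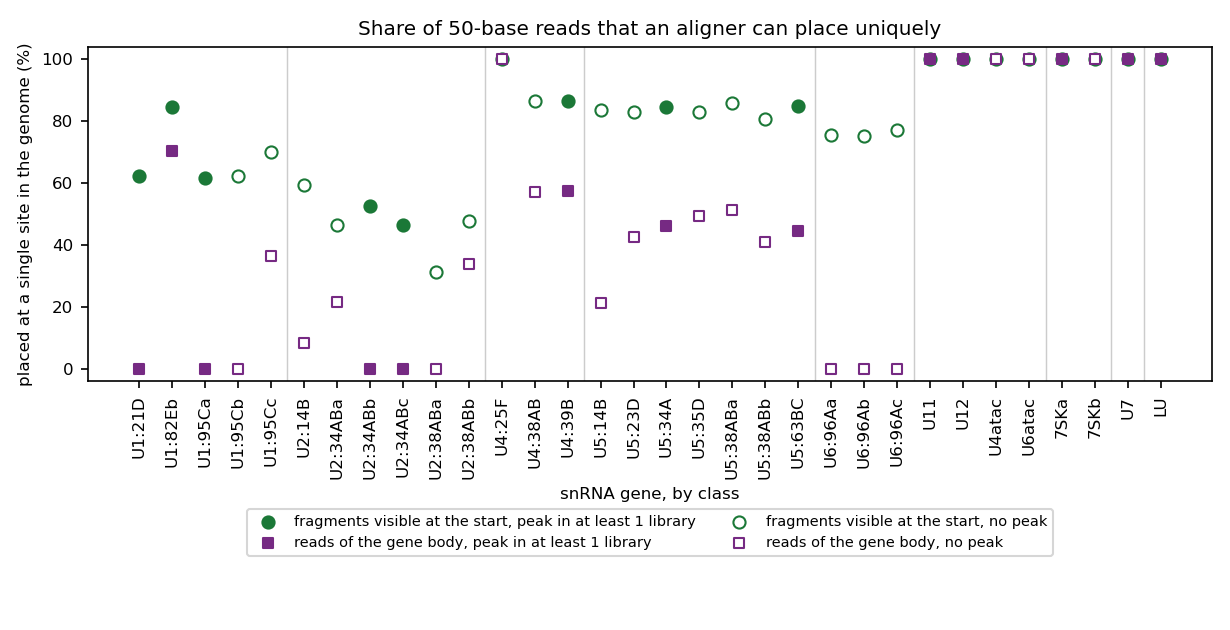
Share of reads placed at a single site in the genome (y axis, %) for each of the 32 snRNA genes (x axis, by class), as 147 bp fragments covering the start (circles) and 50-base reads within the gene (squares), filled where a library had a NELF-E peak. U4:39B, with a peak, and U4:38AB, without one, both stand at 86.4% at the start.

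Depth differed between the treatments. The genome-wide background, recovered from the fold and p-value of the peaks, was 1.18 and 1.48 fragments in the siAGO2 libraries and 4.46 and 2.19 fragments in the mock libraries. The weakest peaks held 6 and 7 fragments at the summit in the siAGO2 libraries, against 14 and 9 fragments in the mock libraries. The lists had 5904 and 6206 peaks in siAGO2 cells and 7944 and 6933 peaks in mock cells. Both siAGO2 libraries were thus shallower than both mock libraries, and depth and treatment cannot be told apart.

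The first comparison asked how many snRNA genes carried NELF-E with and without AGO2 knockdown. A peak was present at 6 and 7 of the 32 genes in siAGO2 replicates 1 and 2, and at 13 and 10 genes in mock replicates 1 and 2. These shares were 18.75% and 21.9% in siAGO2 cells and 40.6% and 31.25% in mock cells. Among all genes, a peak was present at 28.3% and 29.9% in siAGO2 cells and at 36.6% and 32.1% in mock cells. The snRNA genes were thus below the share of all genes in both siAGO2 libraries and close to or above it in the mock libraries. The mean number of genes was 6.5 ± 0.707 in siAGO2 cells and 11.5 ± 2.12 in mock cells (SD, n = 2), a difference of -5 genes. The ranges did not overlap, but an exact two-sided permutation test gave p = 0.33, the smallest value that 2 libraries against 2 can give.

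The difference moved with the length of the lists. With the 5904 highest-scoring peaks of each list, 6 and 7 snRNA genes remained in siAGO2 cells and 8 and 9 in mock cells, a difference of -2 genes. These shares were 18.75% and 21.9% in siAGO2 cells and 25% and 28.1% in mock cells. Among all genes they were 28.3% and 29.3% in siAGO2 cells and 31.0% and 29.2% in mock cells. At equal length the snRNA share was thus lower in both siAGO2 libraries and in mock replicate 1, and close to that of all genes in mock replicate 2. These gaps are of few genes and were not tested. In the full lists, the snRNA share relative to that of all genes was 0.662 and 0.730 in siAGO2 cells and 1.11 and 0.974 in mock cells. This relative difference of -0.346 (exact permutation p = 0.33, n = 2) was added after the data had been seen.

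**Figure D2:**
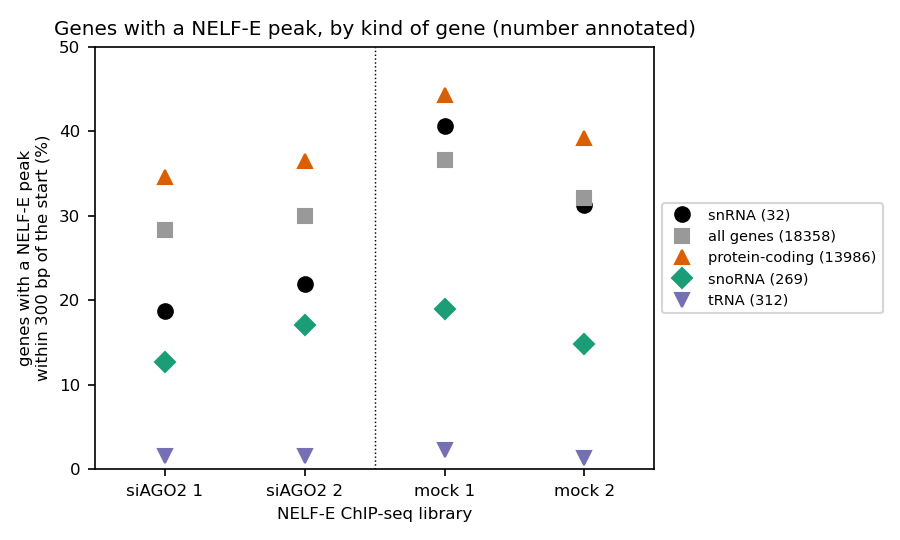
Share of genes with a NELF-E peak within 300 bp of the start (y axis, %) in each library (x axis, siAGO2 left of the dotted line, mock right), by kind of gene. The snRNA genes (black circles) sit at 18.75% and 21.9% in siAGO2 cells and at 40.6% and 31.25% in mock cells, above the tRNA and snoRNA genes in every library.

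Other short genes carried NELF-E less often. The 2411 other genes no longer than the longest snRNA gene had a peak in 7.51% and 8.42% of cases in siAGO2 cells and in 10.6% and 8.42% in mock cells. The tRNA genes, which RNA polymerase III transcribes, had a peak in 1.60% and 1.60% of cases in siAGO2 cells and in 2.24% and 1.28% in mock cells. For the snoRNA genes, which mostly lie in introns in flies, the share was 12.6% and 17.1% in siAGO2 cells and 19.0% and 14.9% in mock cells. Protein-coding genes stood at 34.6% and 36.5% in siAGO2 cells and 44.4% and 39.2% in mock cells. These shares are descriptions, and the differences between kinds of gene were not tested.

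NELF-E was not found at the same genes of each class. In total, 13 of 32 snRNA genes (40.6%) had a peak in at least 1 library, against 37.2% of all genes, and all 13 had one in mock replicate 1, the deepest library. A peak in all 4 libraries was found at 5 snRNA genes (15.6%), namely U11, U1:95Ca, U2:34ABb, U4:39B and LU, against 26.3% of all genes. U1:82Eb and U5:63BC had peaks in the 2 mock libraries but in neither siAGO2 library (6.25%), against 2.17% of all genes. No snRNA gene had the reverse pattern, against 0.0218% of all genes. The remaining 19 genes had no peak. The count of genes with a peak in the mock libraries only depended on single libraries, since it was 4 without siAGO2 replicate 2 and 5 without mock replicate 2.

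**Figure D3:**
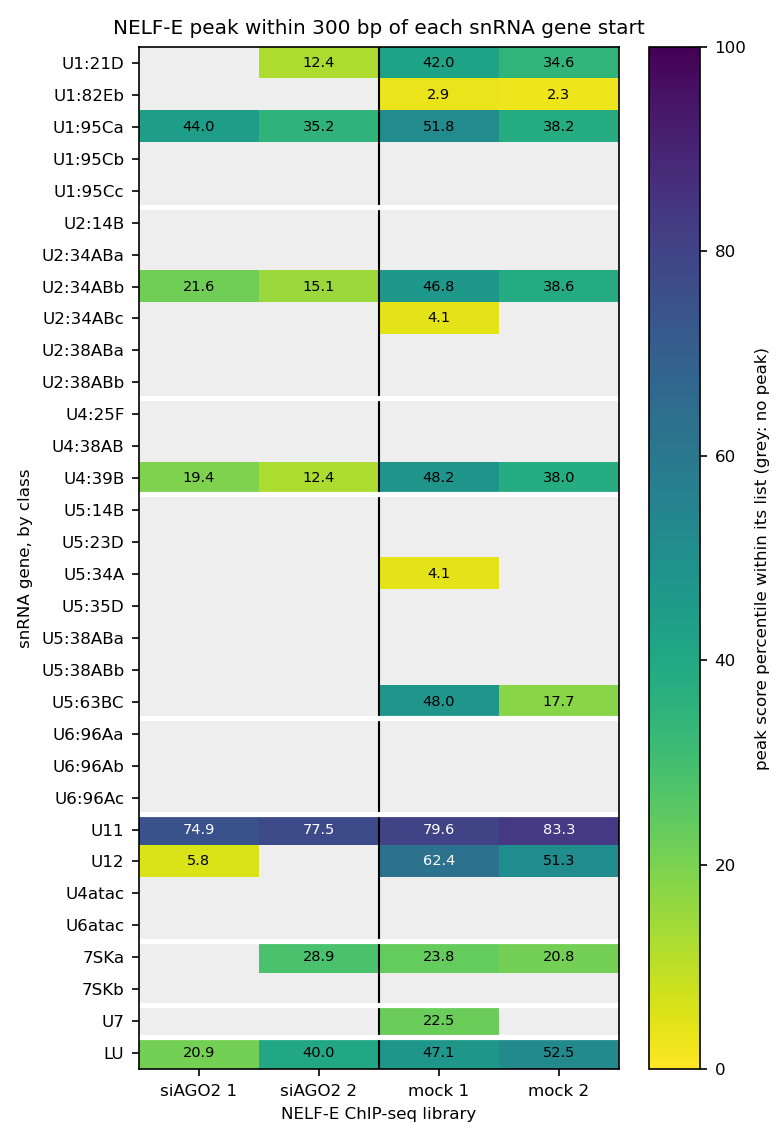
NELF-E peaks at the 32 snRNA genes (rows, by class) in the 2 siAGO2 libraries (left) and the 2 mock libraries (right), coloured and labelled by the percentile of the peak score within its own list, with grey for no peak. U11 has values of 74.9 and 77.5 in siAGO2 cells and 79.6 and 83.3 in mock cells, and the U6 genes are grey throughout.

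To set peaks of unlike libraries side by side, the score of each peak (10 times its −log10 q-value) was expressed as a percentile within its own list, where 0 is the weakest and 100 the strongest. The number of fragments at the summit is given with it, but is not adjusted for depth. Folds are those of the peak caller, which adds 1 to its summit count and 1 to its local background before dividing the former by the latter. The added 1 lowers the fold more where the background is low, and the genome-wide background was lower in both siAGO2 libraries. Folds are therefore not adjusted for depth either.

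The minor spliceosome removes a small class of introns, and U11 and U12 take the parts that U1 and U2 have in the major spliceosome. U11 (chr3L:3893056-3893330, minus strand, in an intron of Fie on the other strand) had the highest-scoring peak of any snRNA gene in all 4 libraries, although U12 had a higher fold in mock replicate 1 (8.79). Its summit held 56 and 75 fragments in siAGO2 cells and 199 and 139 fragments in mock cells. The percentile was 74.9 and 77.5 in siAGO2 cells and 79.6 and 83.3 in mock cells, so siAGO2 was lower by score. The fold was 14.8 and 12.7 in siAGO2 cells and 8.36 and 12.4 in mock cells, so siAGO2 was higher by fold. The direction at U11 therefore depended on the scale. The nearest start of another gene was that of Fie, 599 bp downstream, and the U11 peaks ended 474 and 497 bp downstream in siAGO2 cells and 587 and 505 bp downstream in mock cells.

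U12 (chr3L:16653769-16654006, plus strand, in an intron of Baldspot on the other strand) had a peak in 3 libraries. It held 12 fragments in siAGO2 replicate 1 and was absent from siAGO2 replicate 2, against 85 and 38 fragments in mock cells. The percentile was 5.83 in siAGO2 replicate 1, against 62.4 and 51.3 in mock cells. In siAGO2 replicate 1 the U12 peak was 5531st of 5904 peaks by score, whereas it was 2988th of 7944 and 3377th of 6933 in the mock lists. All 50-base reads at U12 are unique. The other 2 minor genes, U4atac (chr3R:5195004-5195163, minus strand, in an intron of cno) and U6atac, had no peak in any library although all their reads are unique too.

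U1 recognises the splice site at the head of the intron. U1:95Ca (chr3R:23859467-23859630, minus strand, intergenic) had a peak in every library, with 20 and 24 fragments in siAGO2 cells and 83 and 38 in mock cells. Its percentile was 44.0 and 35.2 in siAGO2 cells and 51.8 and 38.2 in mock cells, and these ranges overlap. U1:21D (chr2L:901491-901654, minus strand) had a peak of 16 fragments in siAGO2 replicate 2, none in siAGO2 replicate 1, and peaks of 54 and 28 fragments in mock cells. Its percentile was 12.4 in siAGO2 replicate 2, against 42.0 and 34.6 in mock cells. U1:82Eb (chr3R:4947933-4948096, minus strand) had weak peaks in mock cells only, of 28 and 13 fragments and at percentiles 2.89 and 2.34. U1:95Cb and U1:95Cc, which lie 1536 bp apart in an intron of CG34355, had none. Of the identical genes U1:21D, U1:95Ca and U1:95Cb, U1:95Cb alone had no peak, although the fragments visible at the start were 62.2%, 61.6% and 62.2%.

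U2 pairs with the branch point. U2:34ABb (chr2L:13215839-13216030, plus strand) had a peak in every library, with 14 and 14 fragments in siAGO2 cells and 60 and 30 in mock cells. Its percentile was 21.6 and 15.1 in siAGO2 cells, against 46.8 and 38.6 in mock cells, with no overlap. U2:34ABc (chr2L:13244370-13244561, minus strand, opposite an exon of asRNA:CR45330) and U5:34A (chr2L:13244848-13244974, plus strand) point away from each other, with starts 287 bp apart, and shared a single peak of 17 fragments in mock replicate 1, at percentile 4.13. That peak counts for both genes and cannot be given to either. The other 4 U2 genes, U2:14B, U2:34ABa, U2:38ABa and U2:38ABb, had no peak, with 31.3% to 59.5% of fragments visible at the start.

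U4 holds U6 inactive until the spliceosome is assembled, and U5 aligns the exons. U4:39B (chr2L:21215036-21215178, minus strand, in an intron of Atg18b) had a peak in every library, with 17 and 16 fragments in siAGO2 cells and 75 and 39 in mock cells. Its percentile was 19.4 and 12.4 in siAGO2 cells, against 48.2 and 38.0 in mock cells, with no overlap. U4:38AB, in an intron of sick, had the same 86.4% of fragments visible at its start and no peak in any library, and U4:25F, with 100% visible, had none either. U5:63BC (chr3L:3090801-3090923, plus strand, intergenic) had no peak in siAGO2 cells and peaks of 55 and 19 fragments in mock cells, at percentiles 48.0 and 17.7. The other 5 U5 genes (U5:14B, U5:23D, U5:35D, U5:38ABa and U5:38ABb) had no peak, with 80.6% to 86.1% of fragments visible.

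Of the U6, U6atac and 7SK genes, which RNA polymerase III transcribes, only 7SKa had a peak. U6 forms the catalytic core of the spliceosome, and none of its 3 genes (U6:96Aa, U6:96Ab and U6:96Ac, next to one another on chr3R) had a peak. 7SK RNA holds P-TEFb inactive. 7SKa (chr3R:7474553-7474996, minus strand) had no peak in siAGO2 replicate 1 and 25 fragments in siAGO2 replicate 2, against 67 and 45 fragments in mock cells. Its percentile was 28.9 in siAGO2 replicate 2 and 23.8 and 20.8 in mock cells, and its fold was 4.19 in siAGO2 replicate 2 and 2.72 and 2.69 in mock cells. The local background at 7SKa was high, at 5.21 fragments in siAGO2 replicate 2 and 23.9 and 16.1 fragments in mock cells. 7SKb, in an intron of CG4374, had no peak. Neither TTCNCAA nor TATANA was found before its start, and its place among the RNA polymerase III genes was taken from its symbol.

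The remaining genes were U7 and LU. U7 RNA directs the cleavage of histone mRNA ends, and its gene (chr3L:3593823-3593893, plus strand, in an intron of Eip63E) had a peak in mock replicate 1 only, of 32 fragments and at percentile 22.5. LU (chr2L:3046765-3046880, plus strand, in an intron of FASN2) had a peak in all 4 libraries, with 12 and 19 fragments in siAGO2 cells and 70 and 38 in mock cells. Its percentile was 20.9 and 40.002 in siAGO2 cells and 47.1 and 52.5 in mock cells. The summit at LU lay 471 and 321 bp downstream of the start in siAGO2 cells and 20 and 363 bp downstream in mock cells, so in 3 of 4 libraries the peak entered the window without its summit.

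The position of the peaks was compared next. The median summit lay 128 and 127 bp downstream of the start in siAGO2 cells, over the 6 and 7 genes with a peak. It lay 20 and 134.5 bp downstream in mock cells, over 13 and 10 genes. Because the genes differ between libraries, these medians do not show whether summits moved. They include the LU summits outside the window. In mock replicate 1 they also include the shared peak described above, counted for each of its genes. The U11 summit lay 101 and 127 bp downstream in siAGO2 cells and 145 and 133 bp downstream in mock cells. U12 had its summit 155 bp downstream in siAGO2 replicate 1 and 124 and 152 bp downstream in mock cells, within the gene. At 7SKa it lay 235 bp downstream in siAGO2 replicate 2 and 243 and 259 bp downstream in mock cells.

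At U1:21D, U1:95Ca and U2:34ABb the summits lay near the edges of the stretch without unique reads. The U1:95Ca summits lay 17 and 15 bp upstream of the start in siAGO2 cells and 24 and 1 bp upstream in mock cells, and mock replicate 2 had a further peak with its summit 278 bp downstream. At U1:21D they lay 27 bp upstream in siAGO2 replicate 2 and 21 and 19 bp upstream in mock cells. At U2:34ABb, in contrast, they lay 223 and 232 bp downstream in siAGO2 cells and 212 and 182 bp downstream in mock cells, near the end of the gene. The visible share fell to 40.8% within U1:21D, 39.5% within U1:95Ca and 27.2% within U2:34ABb. Its part in where the summits lay was not tested, and positions at these genes are given as the lists have them. The peaks at U1:21D reached at most 113 bp upstream and so did not reach the start of scaRNA:MeU1:95C-A24, 428 bp upstream, and those at U2:34ABb reached at most 154 bp upstream of the start, short of the start of kek4, 489 bp upstream.

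**Figure D4:**
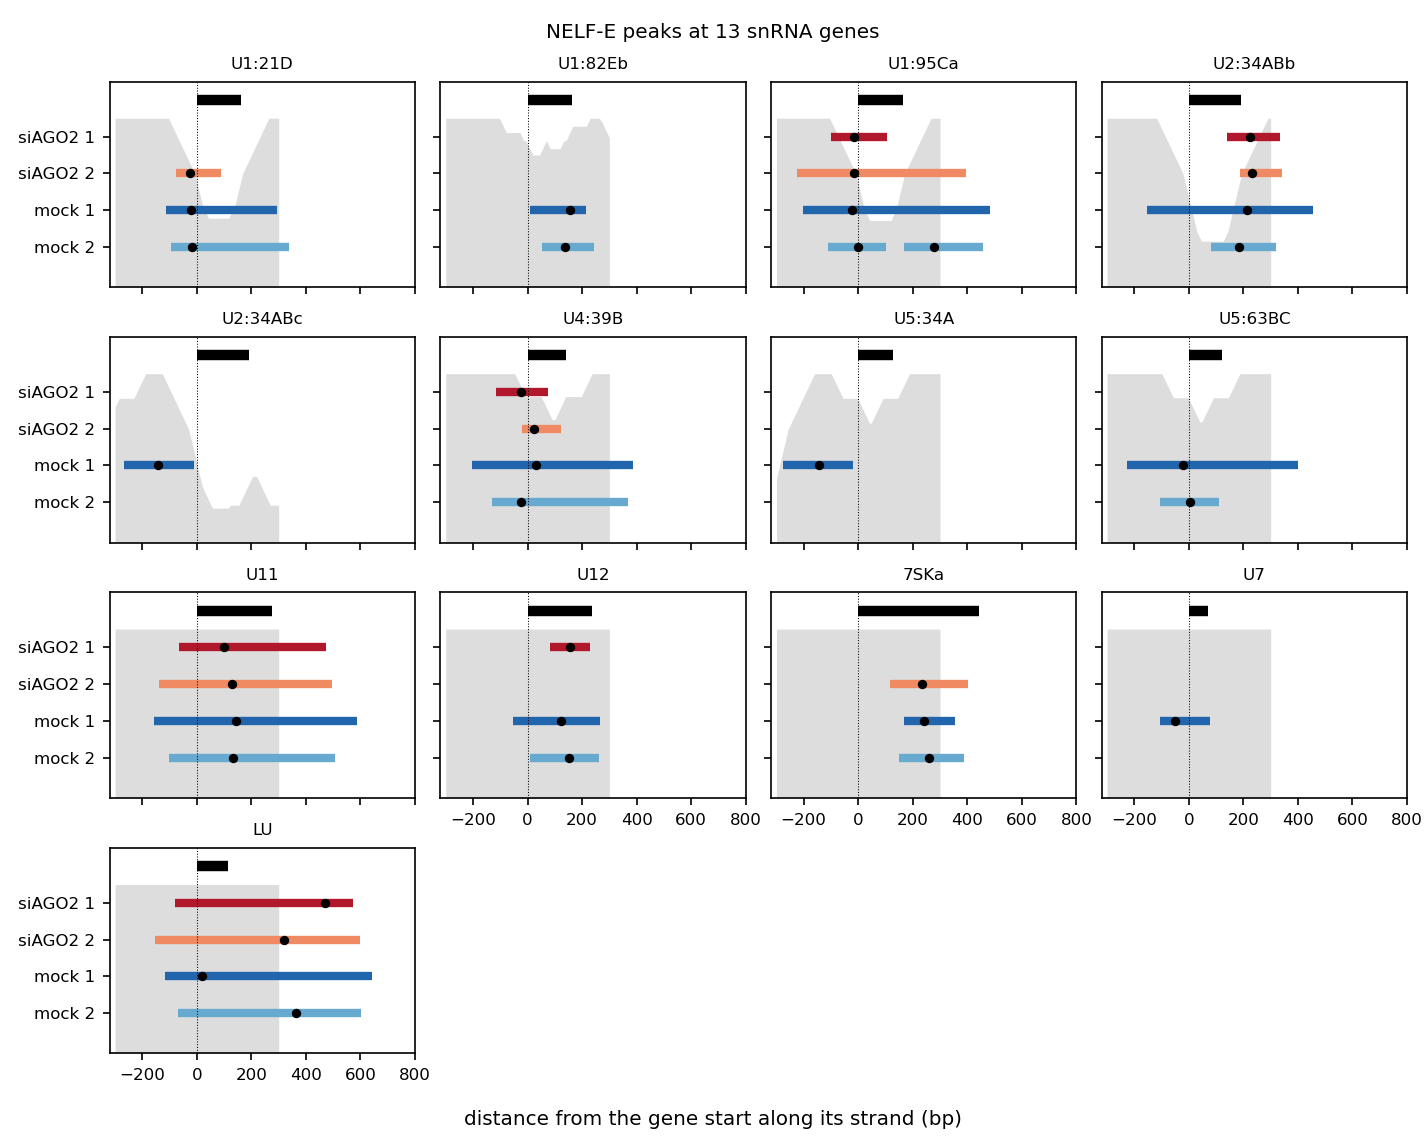
Extent (bars) and summit (dots) of the NELF-E peaks at the 13 snRNA genes with a peak, by distance from the start along the gene's strand (x axis, bp), for the siAGO2 libraries (red, above) and the mock libraries (blue, below). The black bar is the gene, and the height of the grey area, drawn within 300 bp of the start, is the share of fragments that can be placed uniquely, from 0% at the bottom of the panel to 100% where the area is flat below the gene. U1 summits lie 27 bp upstream to 157 bp downstream of the start, except for the second peak at U1:95Ca, and U2:34ABb summits lie 182 to 232 bp downstream.

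The strength of the peaks was compared over the 5 genes with a peak in every library. The median percentile was 21.6 and 35.2 in siAGO2 cells and 48.2 and 38.6 in mock cells (28.4 ± 9.59 in siAGO2 cells and 43.4 ± 6.76 in mock cells, SD, n = 2), a difference of -15.1 with an exact two-sided permutation p = 0.33. Over the 4834 genes of all kinds with a peak in every library, the medians were 59.6 and 62.5 in siAGO2 cells and 70.2 and 65.1 in mock cells. Both siAGO2 percentiles lay below both mock percentiles at 4 of the 5 snRNA genes, against 43% of all such genes, and above at none, against 6.6%. A percentile also depends on how many weaker peaks a list holds, and the mock lists were longer. Ranked only among the 4834 genes, the snRNA medians were 10.9 and 18.2 in siAGO2 cells and 16.3 and 17.0 in mock cells (difference -2.12, exact permutation p = 1), so the ranges overlapped. On that rank U4:39B and U2:34ABb were still lower in both siAGO2 libraries, as they were by fold. Both siAGO2 values were lower at 20.6% of all such genes by rank and at 16.2% by fold. The folds include the 1 added by the peak caller, and its part in this result was not tested. Fragments over local background, without the added 1, overlapped between the treatments at both genes. At U4:39B they were 17 over 3.18 in siAGO2 replicate 1 and 39 over 7.59 in mock replicate 2. At U2:34ABb they were 14 over 1.98 and 30 over 4.25 in the same libraries, nearly equal ratios. These counts were solved from the peak lists and have no independent check.

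The values at these 2 genes were close to each other. U4:39B had folds of 4.31 and 3.68 in siAGO2 cells and 5.38 and 4.66 in mock cells. U2:34ABb had folds of 5.03 and 4.22 in siAGO2 cells and 6.24 and 5.90 in mock cells. Among the 5 genes, siAGO2 folds were above both mock folds only at U11, a pattern found at 30.9% of all genes with a peak in every library. No test was run on these counts of 5 genes.

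The motifs were present at genes of both kinds. TTCCCAA was found at 12 of the 13 genes with a peak and at 14 of the 19 without, and TTCNCAA at 13 of 13 and 18 of 19. TATANA was found at 1 of the 13 genes with a peak, 7SKa, and at 4 of the 19 without. The letters of the PSEA core therefore did not separate the genes with NELF-E from those without.

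The genes encoding proteins that make or use snRNAs were described for comparison. Of 11 symbols of Sm and other snRNP proteins, 10 were matched, and all 10 had a peak in every library, against 26.3% of all genes and 32.3% of protein-coding genes. snRNP-U1-C, a protein of the U1 particle, had the highest percentiles of the 10, at 94.4 and 96.1 in siAGO2 cells and 95.1 and 95.7 in mock cells. snRNP-U1-70K, of the same particle, had only 7.62 and 28.1 in siAGO2 cells and 41.6 and 27.6 in mock cells. The medians over the 10 genes were 45.7 and 50.7 in siAGO2 cells and 65.4 and 49.9 in mock cells. A second list held 15 symbols of factors for snRNA transcription, cap binding and export, the 7SK particle and RNA polymerase III initiation. Of these, 14 were matched, and 10 of the 14 had a peak in every library, against the same 26.3% and 32.3%. Among the SNAPc subunits, Pbp95 had a peak in all 4 libraries, with percentiles of 54.5 and 53.8 in siAGO2 cells and 65.2 and 58.7 in mock cells. Pbp49 had peaks in the mock libraries but in neither siAGO2 library, and Pbp45 had none. Ice2 of the little elongation complex and Brf, a factor of RNA polymerase III, had none either. In contrast, Ell, Eaf and Ice1, listed with Ice2, and Bdp1, listed with Brf, had a peak in every library. So did Cbp20, Cbp80 and Phax. In the 7SK particle, bin3 had percentiles of 84.0 and 85.5 in siAGO2 cells and 95.8 and 85.8 in mock cells, whereas Larp7 had 32.5 and 29.3 in siAGO2 cells and 60.4 and 39.5 in mock cells.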

How the data were processed

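NELF-E ChIP-seq of 2 siAGO2 and 2 mock libraries was used. The authors trimmed 50-base single-end reads with cutadapt, aligned them to dm6 with Bowtie2, removed reads with a mapping quality under 20 and duplicates, and called peaks in each replicate against input with MACS2 2.1.1.20160309. The deposited score is the whole part of 10 times the −log10 q-value. The fold, a ratio, and the −log10 p-value at the summit are also the authors' values. The lowest −log10 q-value was 1.30 to 1.32 in each list.

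Gene starts came from Ensembl BDGP6.54 (release 115), without transposable elements. Whole fragments at each summit were solved from fold and p-value, and came within 0.05 of a whole number for every peak. Where several solutions existed, the one nearest a whole number was kept. In mock replicate 1 a scale of 0.919 was chosen by the same measure. The closeness to whole numbers is therefore no independent check of the counts. Uniqueness of 50-base reads was read from the RefSeq Release 6 genome and stands in for the mapping quality filter, which was not rerun. Motif shares used the 18277 genes with a full window. Libraries were compared with two-sided exact permutation tests (smallest p = 0.33 for 2 against 2) in Python 3 with NumPy and pandas. Lists without counts per region did not allow the count model of the study. The scripts were tested on simulated data. Every snRNA gene with a peak was named with values. The snRNA genes, gene lists and motif were chosen with earlier results of these data known. Alternatives covered the window, the summit, the q-value, list length, neighbouring starts, single replicates and the replicate block.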

Additional observations from a re-analysis of the deposited data

How the results depend on the processing

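No alternative turned a difference between the treatments round, but equal list lengths made the differences in number and in percentile smaller. With lists shortened to an equal length by score, 1 snRNA gene instead of 2 had a peak in both mock and no siAGO2 library, the difference in number of genes was -2 and that in median percentile was -2.42 (exact permutation p = 1). Leaving out a replicate gave 2 to 5 mock-only genes, differences of -3.5 to -6.5 genes and percentile differences of -10.3 to -26.2. Counting copies with 1 mismatch lowered the unique share to 84.7%. Windows of 100 and 1000 bp gave -5.5 and -6 genes, and leaving out 6 genes near another start gave -4.5. With the replicate number as a block the difference stayed at -5 genes and -15.1 percentile points (exact sign-flip p = 0.5, the smallest possible). Deviations of libraries with the same number correlated at -0.0947 over 4834 genes, so the numbers were not taken as pairs. The weakest called peaks of any gene held 6 and 7 fragments in siAGO2 cells and 14 and 9 in mock cells. At the snRNA genes the weakest held 12 and 14 fragments in siAGO2 cells and 17 and 13 in mock cells. The count needed for a call depends on the local background, so a missing peak is not absence of NELF-E.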
